A study of Ovis aries with 24 samples.

Results

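The genes described here mostly encode nuclear subunits of the last enzymes of the mitochondrial respiratory chain: complex III, complex IV and the ATP synthase. They were taken as every single gene symbol beginning with UQCR, COX4 to COX8 or ATP5 in the platform's table of probe sets and genes. That gave 38 genes of the 9155 named there, of which 8 belong to complex III, 13 to complex IV and 17 to the ATP synthase. Counted among these subunit genes are the ATP synthase inhibitor ATP5IF1 and COX7A2L, which helps complexes III and IV join into supercomplexes. Each gene was read from its probe set of highest mean log2 signal over the 24 arrays, and all 38 passed the filter on low signal. COX4I2, COX6B1, COX7B, COX7B2 and ATP5MK were not analysed here, and subunits encoded in mitochondrial DNA and CYC1 lie outside the naming rule.

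Complex III passes electrons from ubiquinol to cytochrome c, and complex IV, cytochrome c oxidase, passes them on to oxygen. Both pump protons across the inner mitochondrial membrane, and the ATP synthase uses the returning protons to make ATP. Several small complex IV subunits exist in a form typical of heart and skeletal muscle (COX6A2, COX7A1, COX8B) and a widely expressed form (COX6A1, COX7A2, COX8A), and the balance between them is known to shift towards the muscle forms as muscle matures.

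The arrays profiled skeletal muscle of Dorset/Suffolk/Rambouillet cross-bred sheep from a flock segregating callipyge, an inherited enlargement of certain muscles. Longissimus dorsi (LD), the long loin muscle, was profiled in genotypes CC, CN, NC and NN, where NN is the wild type, as newborns within 5 days of birth (T0) and at 11 to 12 weeks (T12). At T12, supraspinatus (SS), a shoulder muscle, was profiled in CN and NN, and 2 hind limb muscles labelled SM and ST in NN. The protocol expands SM as semimembranosus, whereas the SM sample labels expand it as semitendinosus, so the abbreviation is kept here. The source names of the T12 samples also speak of birth, and age was taken from the T12 label and the age field. The protocol describes 8 male lambs, 4 of each of the wild type and the paternal heterozygote (written NCpat); the sample names do not say which parent gave the first letter of CN or NC, or how many lambs stand behind an array. Each of the 12 groups had 2 arrays labelled as technical replicates. The 2 arrays were averaged to 1 value per group, so all p-values rest on the spread between group values, mainly between CC, NC and NN of LD taken as 3 values of one condition.

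The values are MAS5 signals, a linear brightness scale on which each array has a fixed trimmed mean, about 200.1 here. Sheep RNA was hybridised to bovine probes, so a level is never compared between genes, only a gene with itself across groups. Array medians lay between 47.4 and 59.7, and technical pairs correlated at 0.974 to 0.988 over all probe sets. Between technical arrays the 38 genes differed by a median of 0.156 on the log2 scale and by 1.48 at most. DLK1, an imprinted growth regulator of the callipyge region, read 9573 in the CN group of LD at T12 against 965.2 to 2818 in the other LD groups of that age. In LD at T0 it read 4093 in CN against 1106 to 1390 in the others. The actin ACTA1 and creatine kinase CKM, which define skeletal muscle, read at least 27820 and 27048 in every group. Since whole muscle was used, fewer mitochondria-rich fibres and less RNA per fibre cannot be told apart.

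All 3 complexes had the same 3 highest and the same 3 lowest groups. Each gene was set against its own mean over the 12 groups, and the median over genes was taken. For all 38 genes it was highest in LD at T0 of NC at 0.24, CC at 0.22 and NN at 0.18 (log2). It was lowest in SS of CN at -0.31, SS of NN at -0.24 and LD of CN at T0 at -0.19. The remaining groups lay between -0.12 (ST) and 0.12 (SM), with LD at T12 of NC at 0.11, NN at 0.07, CC at 0.00 and CN at -0.10. The SM and ST medians were separated by a difference that has no replicate check, since each is 1 group. Complex by complex, the LD CN group at T0 read -0.25 for complex III, -0.28 for complex IV and -0.17 for the ATP synthase, where the other T0 groups read 0.14 to 0.30. The genes of a complex spread around these medians: in LD NC at T0 they ran from -0.23 to 1.46 in complex IV, from -0.09 to 1.20 in complex III and from 0.12 to 0.66 in the ATP synthase.

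**Figure D1:**
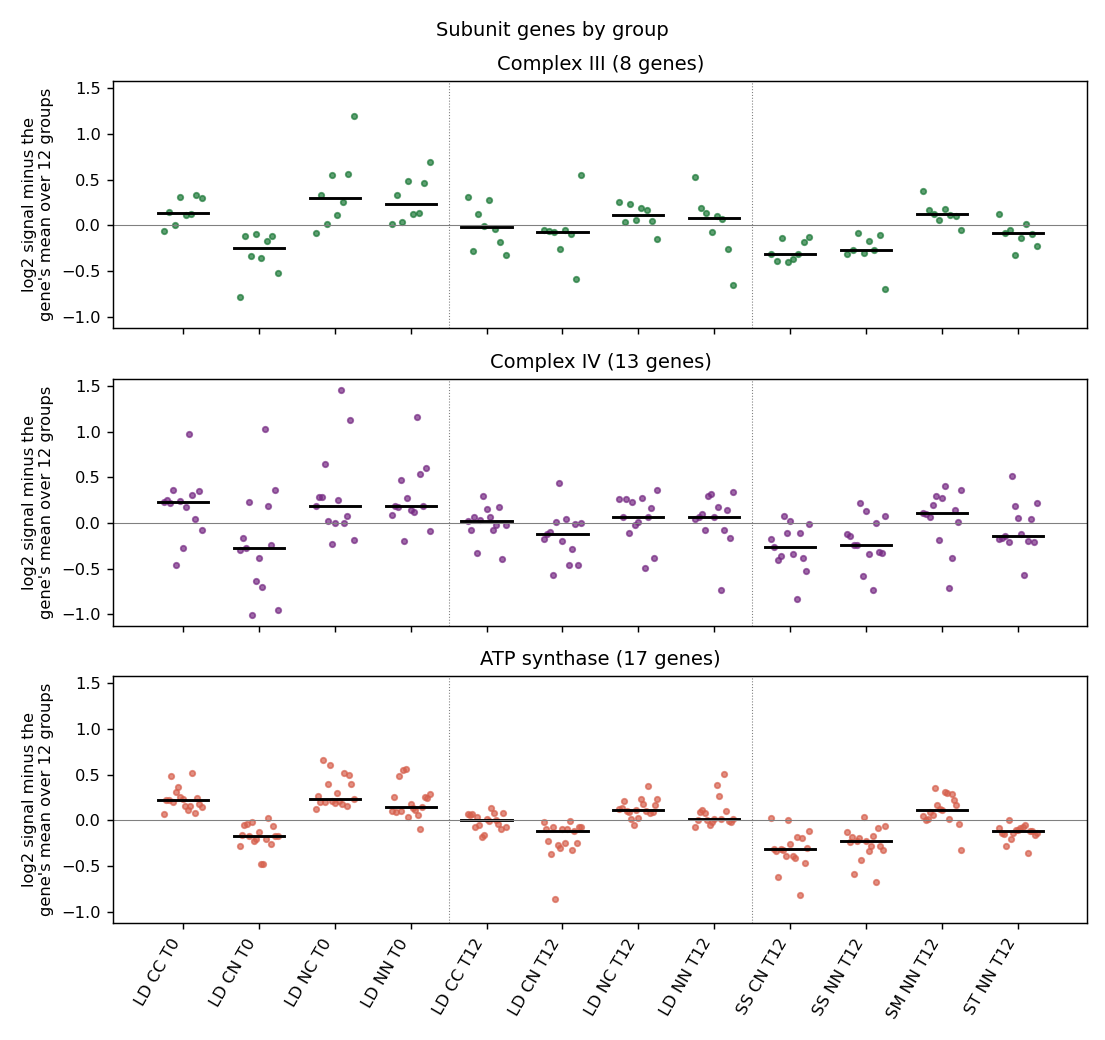
Each point is 1 gene in 1 group, as its log2 signal minus that gene's mean over the 12 groups; the bar is the median over the genes of a complex. In LD at T0 the CN medians lie between -0.28 and -0.17 while the other genotypes lie between 0.14 and 0.30, and the 2 SS groups lie below 0 for every complex.

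The genes differed in how much they moved over the 12 groups. COX7A2 had the widest range of group values, 2.29 on the log2 scale, followed by the complex III subunit UQCRQ at 1.90 and COX8A at 1.66. The narrowest were ATP5MG, a subunit of the membrane part of the ATP synthase, at 0.39 and ATP5F1A, the alpha subunit of that enzyme, at 0.40. LD of CN at T0 was the lowest of the 12 groups for COX7A1, COX6A2, COX8B, UQCR10 and ATP5F1A, among others. SS of CN was the lowest for COX7A2, COX8A, UQCRC1, UQCRC2 and ATP5F1B, among others.

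The first comparison asks how LD changed between birth and 12 weeks in the genotypes other than CN. Over that time the widely expressed complex IV isoforms COX7A2 and COX8A fell. COX6A1 fell on the probe set read here, whereas its dimmer probe set rose. The muscle isoforms COX6A2 and COX8B read higher without passing the threshold. Limma, with Benjamini-Hochberg adjustment over the 15664 probe sets tested, placed 10 of the 38 genes past an adjusted p of 0.05, of which 9 fell and 1 rose. In that comparison 11.7% of all tested probe sets were called, 5.79% lower and 5.89% higher. The median difference was -0.10 over the 38 genes and 0.06 over all tested probe sets. Probe sets of mean log2 signal above 12, the brightness class of 29 of the 38 genes, had a median of -0.06. Of these 443 bright probe sets 142 were called, 78 lower and 64 higher. An unadjusted p under 0.05 was reached by 42.1% of the 38 genes and by 52.1% of the bright probe sets. All 6 arrays at T12 lay below all 6 at T0 for 7 of the 38 genes, against 4.97% of tested probe sets, and all 6 lay above for 0, against 4.65%.

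COX7A2, the widely expressed form of subunit VIIa, changed the most. Its T0 arrays read 2465 and 2914 in CC, 3447 and 4075 in NC, and 2987 and 3116 in NN. Its T12 arrays read 1180 and 1415 in CC, 1021 and 918.5 in NC, and 778.0 and 864.2 in NN. The 2 ages did not overlap, and the gene fell by 1.63 on the log2 scale (SE 0.17, 3 group values at each age), or 3.10-fold, with an adjusted p of 0.000478. The CN arrays, which this test did not use, read 2677 and 2908 at T0 and 1018 and 968.1 at T12. No array of SS, SM or ST exceeded 1078, so every T0 array in the series lay above every T12 array of any muscle. Within T12 the LD groups ran from 820.0 in NN through 968.4 in NC and 992.8 in CN to 1292 in CC, with the NC and CN arrays overlapping, the NN arrays below them and the CC arrays above.

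Its muscle counterpart COX7A1 was not called over the same time. The 6 arrays ran from 9741 to 12226 with a median of 10467 at T0, and from 9637 to 11550 with a median of 10647 at T12. The ages overlapped and the log2 difference was -0.01 (SE 0.09, limma adjusted p = 0.953).

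The other pairs moved in the same relative sense. COX8A, the widely expressed form of subunit VIII, ran from 1189 to 3204 (median 2058) at T0 and from 795.3 to 1394 (median 1007) at T12. It fell by 1.01 (SE 0.17, adjusted p = 0.00465, limma), although 1 CC array at T0 overlapped the T12 range. COX8B, the muscle form, ran from 1375 to 1730 at T0 and from 1520 to 2371 at T12, a difference of 0.34 (SE 0.12) that missed the threshold with an adjusted p of 0.0973. COX6A1, the widely expressed form of subunit VIa, ran from 1621 to 2080 and then from 992.2 to 1296, without overlap, and fell by 0.66 (SE 0.12, adjusted p = 0.00533, limma). COX6A2, the muscle form, ran from 2875 to 4348 and then from 4220 to 5235, overlapping at their edges, with a difference of 0.40 (SE 0.13) and an adjusted p of 0.0742. Both muscle forms lay near the threshold. COX6A2 was called higher by limma with only probe sets above a mean log2 of 8 (adjusted p = 0.0476) and with quantile normalization (adjusted p = 0.0401), and COX8B with CC left out (adjusted p = 0.0304).

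COX6A1 is less certain than the other isoforms, because its 2 probe sets disagreed. The dimmer one rose by 1.08 between T0 and T12 (SE 0.18, adjusted p = 0.00406, limma), and the mean of both gave 0.21. The brighter one carries the suffix _s_at, which the manufacturer gives to probe sets shared by related transcripts.

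**Figure D2:**
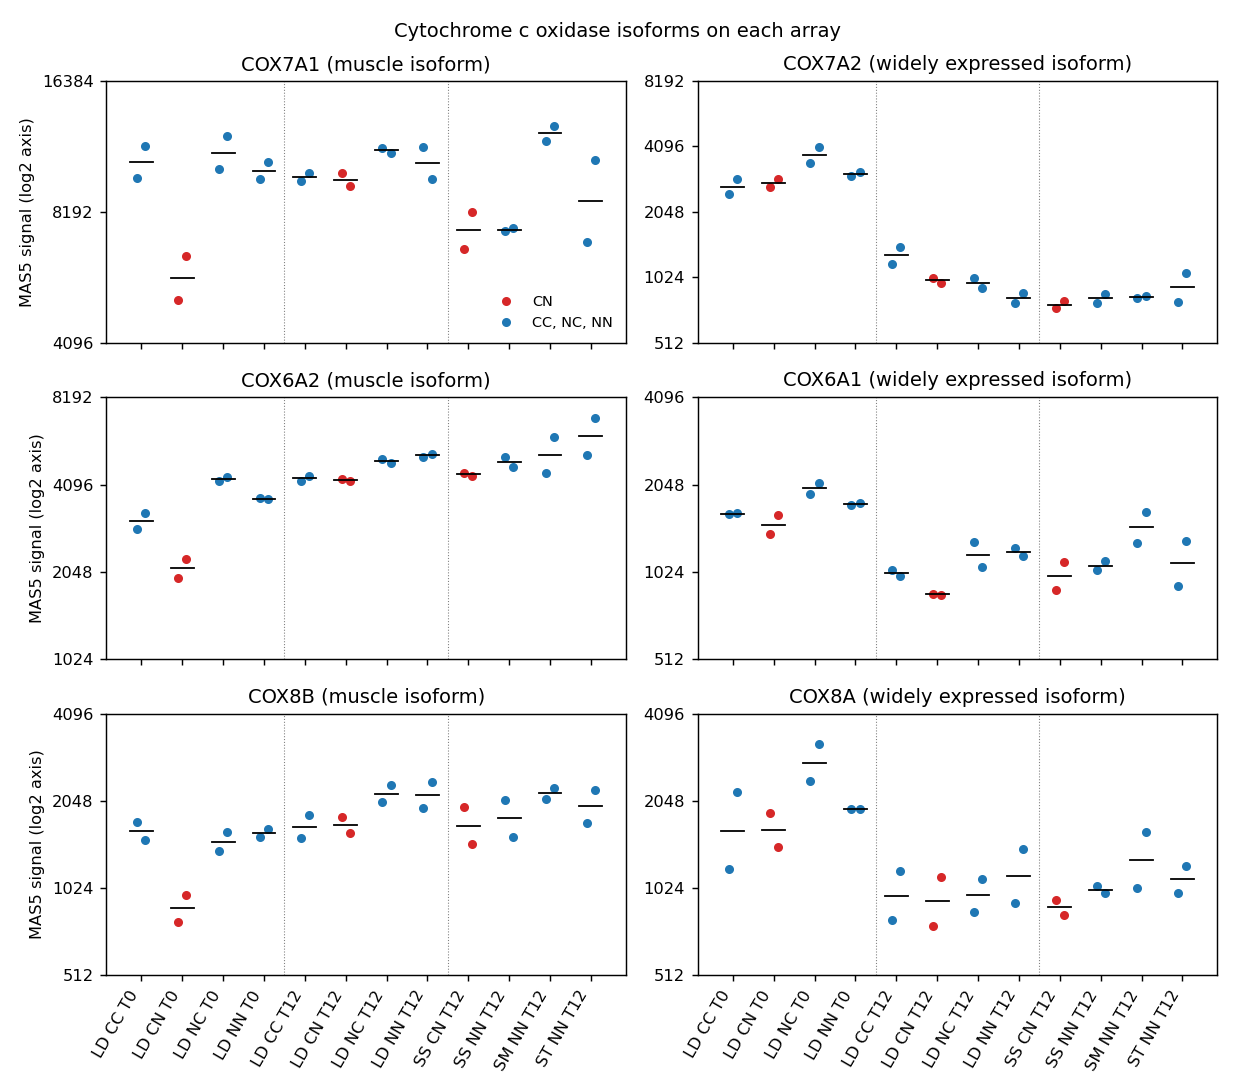
MAS5 signal of 6 complex IV isoforms on each of the 24 arrays (points; log2-spaced axis), with the group mean of log2 signals as a bar; red points are CN arrays. COX7A2 lies between 2465 and 4075 on every T0 array and at 1415 or below on every T12 array, whereas COX7A1 is low in LD of CN at T0 (5154 and 6497).

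The balance of isoforms was also read within each array, as the log2 ratio of the muscle to the widely expressed form, which is unaffected by the scaling of the array. Only changes in a ratio are given, since probe sets differ in brightness. From T0 to T12, over 4 LD groups at each age, the COX7A1 to COX7A2 ratio was higher by 1.78, or 3.42-fold. The COX8B to COX8A ratio was higher by 1.46 (2.75-fold) and the COX6A2 to COX6A1 ratio by 1.25 (2.37-fold). In each of these 3 pairs the 4 groups at T12 all lay above the 4 at T0. The exact permutation test over the 70 regroupings gave p = 0.0286, two-sided, for each, the smallest p the design allows. After Benjamini-Hochberg adjustment over the 6 pairs measured, of 7 planned, that became 0.0571, so none of the 6 passed 0.05. Leaving out the second CN array at T0 gave an adjusted p of 0.0343, and leaving out the second NC array at T0 or the second CN array at T12 gave 0.0429. In those fits the p of these 3 pairs was still 0.0286, and the adjusted p was lower because 1 or 2 of the other pairs reached the same smallest p.

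The ratio by group shows where the genotypes differed. Relative to its mean over the 4 LD groups at T12, the COX7A1 to COX7A2 log2 ratio at T0 was -1.38 in CC, -1.63 in NN, -1.79 in NC and -2.31 in CN. At T12 it was -0.44 in CC, -0.08 in CN, 0.19 in NC and 0.33 in NN. At that age SS read -0.09 in CN and -0.18 in NN, SM 0.53 and ST -0.13, of which SM alone lay outside the LD range. The CN group had the lowest COX7A1 to COX7A2 ratio at T0, and at T12 it lay among the others. For COX6A2 to COX6A1 the T0 values were -1.64 in CN and -1.23 to -1.04 in the others. For COX8B to COX8A, CN at -1.84 was level with NC at -1.84, and the 2 CC arrays lay far apart, at -0.40 and -1.50.

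**Figure D3:**
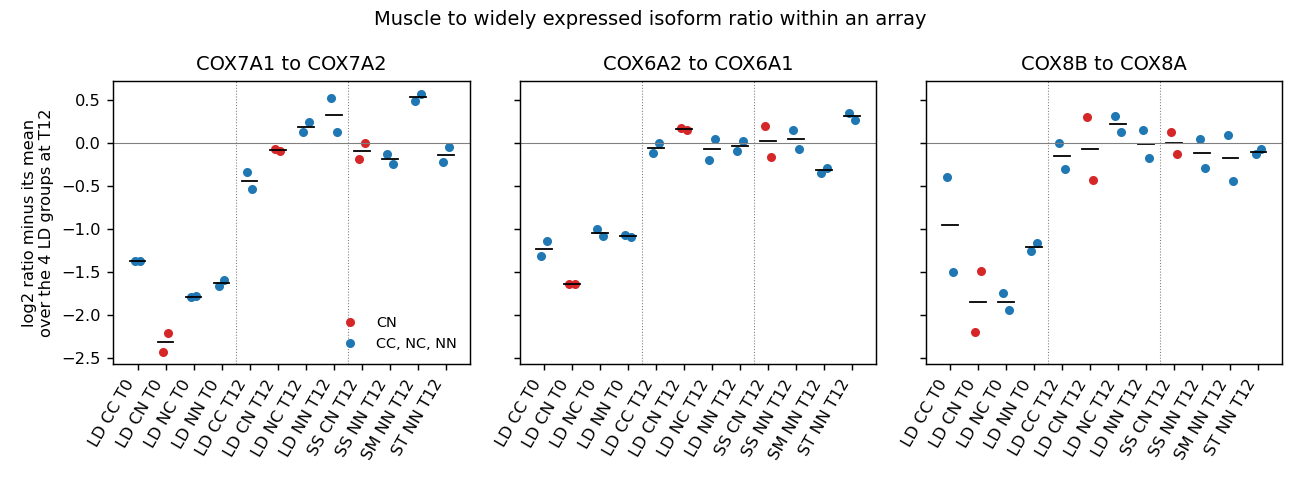
Log2 ratio of muscle to widely expressed isoform on each array (points), minus its mean over the 4 LD groups at T12, with the group mean as a bar. Every T0 group lies below every T12 group in each panel; the differences are 1.78, 1.25 and 1.46 from left to right, and for COX6A2 the ratio rests on a COX6A1 probe set that its second probe set contradicts.

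The other pairs changed less. COX7A2L, a relative of COX7A2 that helps complexes III and IV join into supercomplexes, was not called with age (-0.29, SE 0.14, adjusted p = 0.211, limma), and the COX7A1 to COX7A2L ratio differed by 0.51 (exact permutation p = 0.0857, adjusted 0.0857). COX4I1, the common form of subunit IV, differed by -0.06 (adjusted p = 0.751, limma). ATP5MC1, ATP5MC2 and ATP5MC3 encode the same mature c subunit of the rotor ring with different import sequences. ATP5MC1 fell by 0.60 (SE 0.10, adjusted p = 0.00318, limma), from 12128 to 16054 at T0 to between 7858 and 10294 at T12, without overlap. ATP5MC2 and ATP5MC3 differed by -0.19 and -0.18, neither called. The ATP5MC1 to ATP5MC2 and ATP5MC1 to ATP5MC3 ratios differed by -0.30 and -0.34, with exact permutation p of 0.0571 and 0.0857, both 0.0857 after adjustment.

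In complex III, 3 of 8 genes fell with age and 1 rose. UQCRC1, a core subunit, ran from 10424 to 12566 at T0 and from 7753 to 9492 at T12, and fell by 0.45 (SE 0.10, adjusted p = 0.0113, limma). Its partner core subunit UQCRC2 differed by 0.08 (SE 0.09) and was not called. UQCRH, the acidic hinge protein near cytochrome c1, ran from 10160 to 13526 and then from 6469 to 9427, and fell by 0.59 (SE 0.11, adjusted p = 0.00588, limma). Both falling genes had no overlap between ages. UQCRQ, a small subunit with low signal, ran from 299.6 to 675.6 at T0 and from 129.2 to 323.3 at T12, overlapping, and fell by 1.11 (SE 0.23, adjusted p = 0.00969, limma). UQCR10, another small subunit, ran from 1519 to 1746 at T0 and from 1480 to 3124 at T12, and was called higher by 0.41 (SE 0.11, adjusted p = 0.0302, limma). Its T12 arrays of one group differed widely, 1817 and 3124 in NN, and the call was lost when the second CC or NC array at T12 or either NN array at T12 was left out (0.27 to 0.55, adjusted p up to 0.366).

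In the ATP synthase, besides ATP5MC1, ATP5F1D and ATP5IF1 fell. ATP5F1D, the delta subunit of the central stalk, ran from 6168 to 7373 at T0 and from 4201 to 5454 at T12, and fell by 0.49 (SE 0.10, adjusted p = 0.00902, limma). ATP5IF1, the inhibitor that blocks the enzyme from running backwards, ran from 8636 to 11125 and then from 6218 to 8604, and fell by 0.43 (SE 0.09, adjusted p = 0.0140, limma), a call lost without the second NC array at T12 (adjusted p = 0.102). Neither overlapped between ages. The alpha subunit ATP5F1A and the catalytic beta subunit ATP5F1B differed by -0.05 and -0.18 and were not called. In all, 15 of 17 ATP synthase genes, 8 of 13 in complex IV and 5 of 8 in complex III had a negative difference, against 44.8% of all tested probe sets.

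Other cell types also moved between the ages. Of the listed marker genes, COL1A1 (-1.49), COL1A2 (-0.74) and FMOD (-1.25) fell, as did the globins HBB (-2.26) and HBG (-1.76). In all, 7 of 10 matrix genes and 5 of 6 tested red blood cell genes were negative. The smooth muscle genes MYH11, ACTA2 and TAGLN and the T cell genes CD3E and CD8A rose. In all, 5 of 5 smooth muscle and 4 of 6 tested immune genes were positive. So were 5 of 8 endothelial genes (1 called higher), while 6 of 6 adipocyte genes were negative (0 called). Fast fibre genes were positive in 9 of 9 (median 0.12, 1 called higher). Slow fibre genes were split, 5 positive and 4 negative (median 0.21), with MB called higher (0.79) and MYOZ2 lower (-0.50). The summed signal of the 10 matrix genes ran from 59292 to 70555 on the 6 T0 arrays and from 39370 to 54057 on the 6 T12 arrays. For the 8 red blood cell genes it ran from 419.7 to 732.5 and from 242.0 to 390.7, and none of them was at 0. For the 8 immune genes it ran from 326.2 to 468.4 and from 511.9 to 638.7. The part of these shifts in the subunit values was not tested.

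The second comparison asks what set the CN group apart in LD at birth. All 3 complexes read lower in CN at T0: the difference was negative for 38 of 38 genes, with a median of -0.40, against 52.0% of tested probe sets negative and a median of -0.02. The medians were -0.51 for complex III, -0.41 for complex IV and -0.39 for the ATP synthase. With 1 CN value against 3, only COX7A1 passed an adjusted p of 0.05, where 0.172% of tested probe sets did in either direction and 0.0447% as lower. An unadjusted p under 0.05 was reached by 31 of 38 genes and by 11.7% of all tested probe sets. Both CN arrays lay below all 6 arrays of CC, NC and NN for 30 of the 38 genes, against 9.68% of tested probe sets.

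The largest differences were in the muscle isoforms of complex IV and a few small subunits. COX7A1 read 5154 and 6497 on the CN arrays against 9741 to 12226 on the other 6, a difference of -0.88 (SE 0.13, adjusted p = 0.0462, limma). COX8B read 781.2 and 971.1 against 1375 to 1730 (-0.84, SE 0.17, adjusted p = 0.0689), but its dimmer probe set gave 0.07 (SE 0.21, adjusted p = 0.945, limma) and the mean of both -0.38 (adjusted p = 0.429). COX6A2 read 1952 and 2271 against 2875 to 4348 (-0.79, SE 0.18, adjusted p = 0.0949). On the brighter probe set of each of these 3 muscle isoforms the CN arrays lay below all others without overlap.

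The widely expressed partners differed less. COX7A2 read 2677 and 2908 in CN, inside the range of 2465 to 4075 of the others (-0.17, SE 0.25, adjusted p = 0.879, limma). COX8A read 1864 and 1424, also inside the range of the others (-0.33, SE 0.25). COX6A1 read 1379 and 1603, just below the others' lowest of 1621 (-0.26, SE 0.17). The within-array ratio of muscle to widely expressed form was lower in CN than in the mean of the others by 0.72 for COX7A1 to COX7A2, 0.53 for COX6A2 to COX6A1 and 0.51 for COX8B to COX8A, each with 1 CN group and no test. COX7A2L had the smallest difference of the 38 genes at -0.09.

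In complex III, UQCRQ read 203.5 and 169.0 in CN against 299.6 to 675.6 (-1.25, SE 0.32, adjusted p = 0.133, limma), the most negative of all 38. UQCR10 read 978.9 and 944.9 against 1519 to 1746 (-0.74, SE 0.15, adjusted p = 0.0694). Both small subunits were lower on both CN arrays than on any other T0 array. In the ATP synthase, ATP5MC1 read 8280 and 8468 against 12128 to 16054 (-0.73, SE 0.14, adjusted p = 0.0574). The membrane subunits ATP5ME and ATP5MF differed by -0.67 and -0.62, and the alpha and beta subunits ATP5F1A and ATP5F1B by -0.37 and -0.40. The gamma subunit ATP5F1C, at -0.22, moved least in that complex. The dim COX6B2, which is known mainly from testis, read 66.0 and 63.8 against 83.9 to 139.6.

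Several measures moved with the CN group at T0. Its arrays had the lowest medians of all LD arrays at T0, 48.1 and 47.4 against 50.1 to 52.9, and bright probe sets as a class were lower: those above a mean log2 of 12 had a median of -0.16 and were negative in 76.1% of 443. With quantile normalization, which forces all arrays to one distribution, 38 of 38 genes were still negative, with a median of -0.24, and 0 were called. The 6 tested red blood cell genes were all negative (median -0.80), 7 of 8 endothelial genes were negative (median -0.52), and 9 of 9 slow and 8 of 9 fast fibre genes were negative (medians -0.27 and -0.22), with none called. The summed red blood cell signal was 363.6 and 379.6 in CN against 419.7 to 732.5, and the summed endothelial signal 2546 and 2737 against 2952 to 3348. The matrix list (8 of 10 genes negative, median -0.36) summed to 45837 and 50219 against 59292 to 70555, and the adipocyte list (6 of 6 negative, median -0.38) to 5797 and 6509 against 7631 to 9489. No marker on these 4 lists was at 0. Some lay far below the array medians, such as AHSP at 1.7 and LEP at 5.5 in CN. The immune and smooth muscle lists were mixed. Of the immune genes 4 of 6 were positive (median 0.215), summing to 522.8 and 372.9 against 326.2 to 468.4. Of the smooth muscle genes 3 of 5 were negative (median -0.28), summing to 14440 and 15603 against 12902 to 15866. The part of all these lists in the lower subunit values was not tested. The 3' to 5' log2 ratio of the GAPDH probes, which is higher where RNA is less intact, was 0.23 and 0.22 in CN. That was inside the others' range of 0.13 to 0.31.

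The COX7A1 call is fragile. It was lost when any 1 of 10 arrays was left out: both CC arrays at each age, both NC arrays at T0, the second NC array at T12, the second NN array at T0 and both NN arrays at T12. The difference then stayed between -1.05 and -0.72 over all 24 such fits, with adjusted p up to 0.0894. Leaving out the second CN array at T0 gave a median over the 38 genes of -0.514, and leaving out the first gave -0.338.

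At 12 weeks the subunit genes of CN again read lower in LD, by less at the median. The difference was negative for 36 of 38 genes, with a median of -0.20, against 55.6% and a median of -0.06 over all tested probe sets. Probe sets above a mean log2 of 12 were negative in 68.4%, with a median of -0.09. All 17 ATP synthase genes were negative. ATP5IF1, the inhibitor and not a subunit, was the only gene called. Among tested probe sets 0.179% were called in either direction and 0.14% as lower. An unadjusted p under 0.05 was reached by 10 of 38 genes (26.3%), by 9.97% of tested probe sets and by 19.0% of the bright ones. Both CN arrays lay below the 6 others for 14 of 38 genes, against 7.58% of tested probe sets.

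ATP5IF1 read 3808 and 4223 in CN and 7968 and 6218 in CC, 8604 and 6243 in NC, and 7191 and 7452 in NN. The CN arrays lay far below the rest, and the difference was -0.85 (SE 0.13, 1 value against 3, adjusted p = 0.0484, limma). At T0 the CN difference in this gene was -0.43 (SE 0.13, adjusted p = 0.205), with 8149 and 6387 against 8636 to 11125. SS of CN, at 6016 and 5617, overlapped SS of NN, at 7685 and 5280. The T12 call was lost when any 1 of 14 arrays was left out: the first CC array at either age, any NC or NN array of LD, the first SM array, either SS array of CN and the first SS array of NN (-0.93 to -0.77, adjusted p up to 0.0978).

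The next most negative at T12 were ATP5MJ, a small membrane subunit, at -0.62 (SE 0.25, adjusted p = 0.414, limma) and UQCRH at -0.45 (SE 0.15, adjusted p = 0.303). The CN arrays of the muscle isoforms overlapped the others: COX7A1 read 10043 and 9376 in CN against 9637 to 11550 (-0.13), and COX6A2 and COX8B differed by -0.17 and -0.23. UQCRQ and COX6B2 were the only genes of the 38 above the others, and UQCRQ read 377.5 and 405.5 in CN against 129.2 to 323.3 (0.93, SE 0.32, adjusted p = 0.316).

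Slow fibre genes moved with the CN group at T12: 9 of 9 were negative, with a median of -0.58, and MYH7 and TNNT1, the slow myosin and troponin T, were called. Their summed signal was 95331 and 90929 in CN against 129496 to 168347. The matrix list was also lower, at 33450 and 29097 against 39370 to 54057, as was the immune list, at 452.8 and 368.2 against 511.9 to 638.7, and the 3' to 5' GAPDH log2 ratio was -0.03 and 0.09 in CN against 0.04 to 0.25. Their part in the subunit values was not tested.

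The difference between the 2 ages was tested as an interaction, and limma called 0 of 38 genes and 0% of tested probe sets. An unadjusted p under 0.05 was reached by 6 genes (15.8%), by 1392 probe sets (8.89%) and by 16.7% of those above a mean log2 of 12. The estimate was positive, a less negative CN difference at T12, for 33 of 38 genes, with a median of 0.22 against -0.04 over all tested probe sets. Of the 443 probe sets above a mean log2 of 12, 286 were positive, with a median of 0.08. UQCRQ had the largest estimate at 2.19 (SE 0.45, adjusted p = 0.201), followed by COX6B2 at 0.97 (SE 0.45, adjusted p = 0.563) and COX7A1 at 0.76 (SE 0.18, adjusted p = 0.268). ATP5IF1, at -0.42 (SE 0.19, adjusted p = 0.555), had the most negative. The age and genotype contrasts share the CC, NC and NN groups, so their values are not independent of each other.

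**Figure D4:**
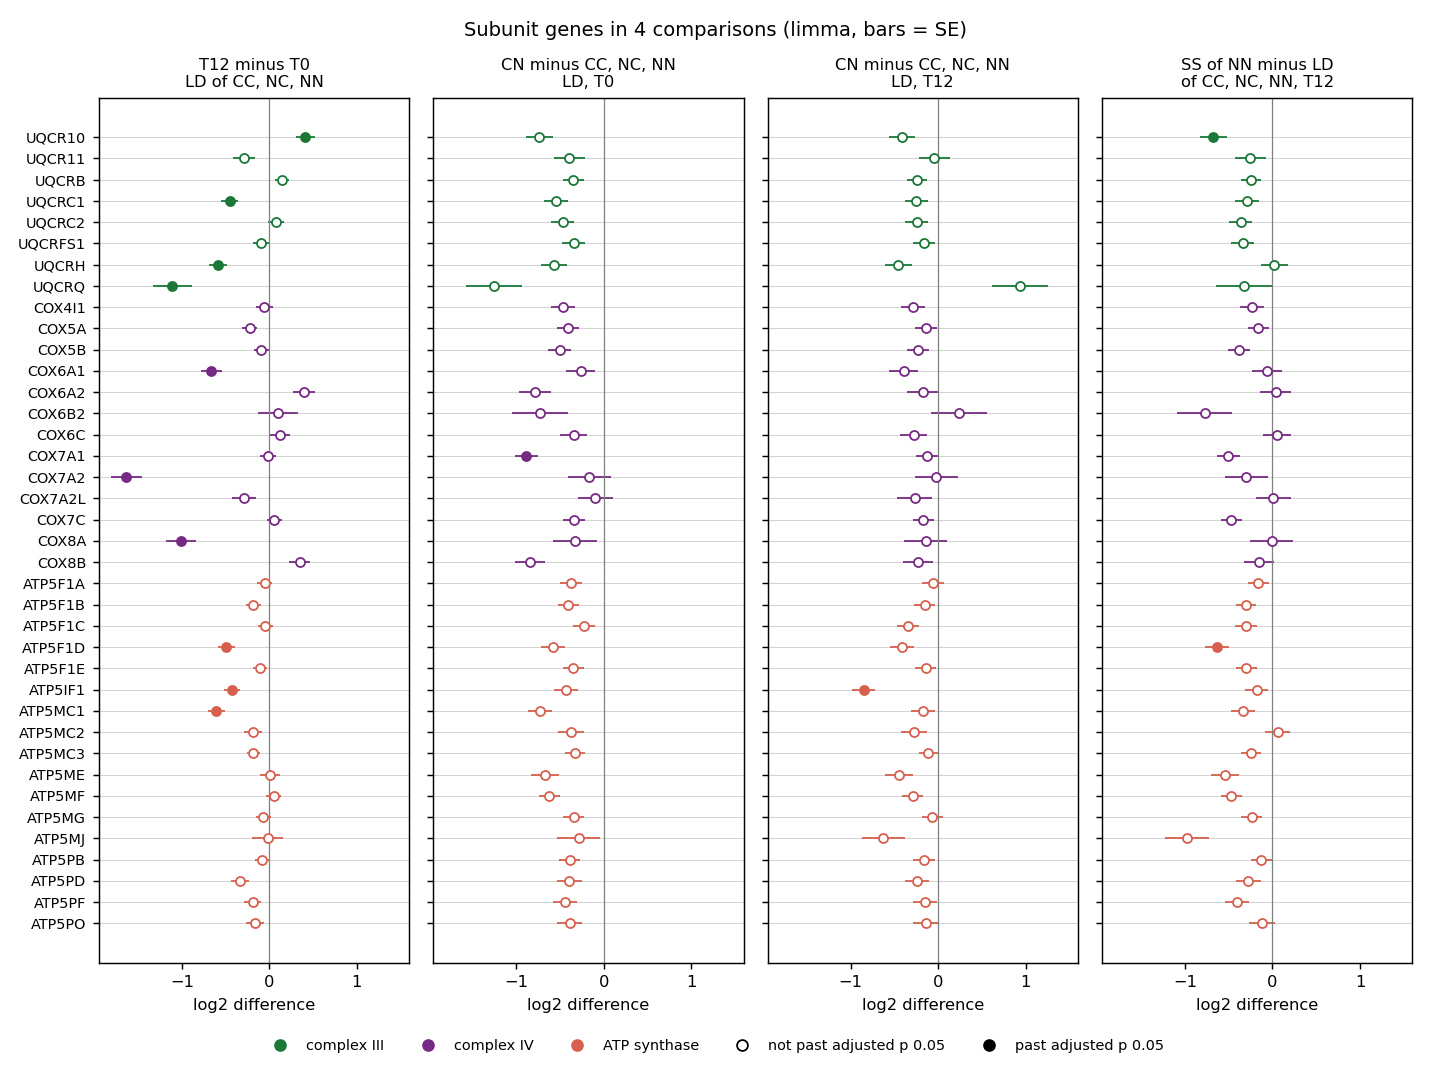
Log2 difference of each of the 38 genes in 4 comparisons (points) with its limma standard error (bars); filled points passed an adjusted p of 0.05. The second panel has all 38 genes below 0 with COX7A1 filled (-0.88), the first has COX7A2 farthest left (-1.63), and the third has ATP5IF1 filled (-0.85) and UQCRQ to the right (0.93).

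In supraspinatus, which served as a muscle other than the loin, no subunit gene was called between CN and NN at T12. Limma called 0 of the 38 genes and 0% of tested probe sets. An unadjusted p under 0.05 was reached by 0 of the 38 and by 656 probe sets (4.19%). With 1 group value on each side, the differences ran from -0.20 (COX8A) to 0.57 (UQCRQ), with a median of -0.08. COX7A1 read 6725 and 8203 in CN and 7398 and 7514 in NN, a difference of -0.01 (SE 0.16). COX6A2 read 4507 and 4380 against 5097 and 4722 (-0.14, SE 0.22), and COX7A2 741.8 and 794.2 against 781.2 and 861.0 (-0.10, SE 0.30). The arrays of the 2 genotypes overlapped for COX7A1 and COX7A2 and not for COX6A2; a p that misses the threshold does not show equal levels.

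Supraspinatus of NN was low in subunit signal beside LD of CC, NC and NN at the same age. The difference was negative for 33 of 38 genes, with a median of -0.28, against 48.1% and 0.03 over all tested probe sets, and -0.13 over probe sets above a mean log2 of 12. The medians were -0.31 for complex III, -0.16 for complex IV and -0.30 for the ATP synthase. Limma called 2 genes, both lower, where 2.96% of tested probe sets were called and 1.53% as lower. Of the 443 probe sets above a mean log2 of 12, 50 were called, 36 of them lower. Both SS arrays lay below all 6 LD arrays for 20 of 38 genes, against 9.87% of tested probe sets.

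ATP5F1D read 2916 and 3094 in SS against 4201 to 5454 in LD, without overlap (-0.64, SE 0.14, adjusted p = 0.0365, limma). The dimmer ATP5F1D probe set gave -0.16 (SE 0.21, adjusted p = 0.797, limma). UQCR10 read 1547 and 1149 against 1480 to 3124, overlapping (-0.68, SE 0.15, adjusted p = 0.0401). The ATP5F1D call was lost without the first CC, second NC or either NN array of LD at T12, the first NC array at T0 or the second NN array at T0 (-0.69 to -0.58, adjusted p up to 0.0737). The UQCR10 call was lost without the second CC or either NC array at T0 or the first NN array at T0, the second CC or NC or either NN array of LD at T12, or the second SS array of NN (-0.89 to -0.46, adjusted p up to 0.350).

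The isoforms of SS did not follow one direction. COX7A1 read 7398 and 7514 against 9637 to 11550 in LD, without overlap (-0.51, SE 0.13, adjusted p = 0.0684, limma), whereas COX6A2 read 5097 and 4722, inside the LD range (0.04, SE 0.18). ATP5MJ had the most negative difference, 2744 and 3655 against 4938 to 8461 (-0.98, SE 0.25, adjusted p = 0.0669), and COX6B2 followed at -0.78 (SE 0.32), where 1 SS array read 40.2 and the other 112.3. At the other end were ATP5MC2, COX6C and COX6A2, at 0.06, 0.05 and 0.04.

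The slow fibre markers of SS went the other way from the subunits. Of the slow fibre list 8 of 9 genes were higher in SS than in LD (median 0.58, TNNT1 and MYOZ2 called), and 8 of 9 fast fibre genes were lower (median -0.17; TNNT3, TNNI2 and ACTN3 called). The summed slow signal was 211858 and 220632 in SS against 129496 to 168347 in LD. Of the red blood cell genes 5 of 6 were lower (median -1.19, summed signal 190.5 and 199.9 against 242.0 to 390.7). Of the endothelial genes 7 of 8 were lower (median -0.38, summed signal 2576 and 2743 against 3036 to 4233), and of the immune genes 4 of 6 (510.4 and 445.1 against 511.9 to 638.7). The adipocyte genes LPL and ADIPOQ were called higher (2.80 and 1.71), and the 3' to 5' GAPDH log2 ratio was 0.02 and 0.06 against 0.04 to 0.25. The part of these differences in the subunit values was not tested.

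Against the hind limb muscles SM and ST, SS of NN again read lower for 35 of 38 genes with a median of -0.22, against 47.6% and 0.03 over all tested probe sets and 65.9% and -0.10 over those above a mean log2 of 12. Limma called 0 of the 38, where 0.996% of tested probe sets were called. An unadjusted p under 0.05 was reached by 9 of the 38 (23.7%), by 12.1% of all tested probe sets and by 26.6% of the bright ones. Both SS arrays lay below all 4 SM and ST arrays for 8 of 38 genes, against 10.9% of tested probe sets. UQCR10 (-0.56, SE 0.16, adjusted p = 0.178, limma) and COX7A1 (-0.48, SE 0.14, adjusted p = 0.181) had the smallest p-values. ATP5MJ at -0.64, COX6B2 at -0.58 and UQCRQ at -0.57 were the most negative, and COX7A2L at 0.29, ATP5PO, the stalk protein OSCP, at 0.17 and ATP5MC2 at 0.03 the most positive. COX7A1 read 11958 and 12915 in SM but 6991 and 10765 in ST, so 1 of the 2 ST arrays lay below both SS arrays. The slow fibre list was higher in SS (211858 and 220632 against 147002 to 207741), and the fast fibre list (166899 and 168874 against 186932 to 218869) and the red blood cell list (190.5 and 199.9 against 254.1 to 454.7) were lower; their part in the subunit values was not tested.

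No subunit gene was called between SM and ST together and LD. The difference was negative for 25 of 38 genes with a median of -0.06, against 51.3% and -0.01 over all tested probe sets. Limma called 0 genes, where 0.0447% of tested probe sets were called. An unadjusted p under 0.05 was reached by 1 gene (2.63%) and by 7.34% of tested probe sets. The difference ran from -0.33 (ATP5MJ), -0.29 (ATP5PO) and -0.28 (COX7A2L) to 0.22 (COX6A2), 0.22 (COX8A) and 0.24 (UQCRQ). Without the first ST array the median became 0.03. These 3 muscle contrasts share the SS, SM, ST and LD groups, so their values are not independent.

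Other genes of the same pathways were counted from lists drawn up by function. Between T0 and T12, 2 of 4 complex III genes outside the rule fell: CYC1, the cytochrome c1 subunit itself, by 0.36 (adjusted p = 0.0328, limma) and the assembly factor UQCC3 by 0.60. Of 12 complex IV accessory and assembly genes 3 fell, namely COX10, which makes heme O, by 0.50, COX16 by 0.71 and COA3 by 0.47. Of 11 ATP synthase assembly and ATP export genes 2 fell, the adenine nucleotide carrier SLC25A6 by 1.18 and the outer membrane channel VDAC2 by 0.33. None rose on these 3 lists, where 5.79% of all tested probe sets were called lower and 5.89% higher, and 0 of 7 regulators of mitochondrial genes, PPARGC1A among them, were called.

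In LD of CN at T0 none of these genes was called. The medians were -0.16 for the complex III list (4 of 4 negative), -0.35 for the complex IV list (10 of 12) and -0.22 for the ATP synthase list (9 of 11), and 0.01 for the regulators (3 of 7). CYC1 read 9880 in CN against 14371 to 15875 in the others (-0.63, SE 0.13, adjusted p = 0.0768, limma), and NDUFA4, an accessory subunit of complex IV, 16818 against 21599 to 22997 (-0.41). At T12 in CN none was called either, with medians of -0.34, 0.07, -0.05 and -0.16. In SS against LD, SLC25A5 was called higher by 1.51 and COX15 lower (-2.56), the latter at group values of 11.3 against 65.5 to 69.7, where array medians were 47.4 to 59.7.

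For 10 of the 38 genes a second probe set existed, of which 6 passed the filter. Besides COX6A1, the dimmer probe set of ATP5F1D differed by -0.10 with age, where the brighter one fell by 0.49, and by 0.59 in CN at T0, where the brighter one differed by -0.58. The dimmer ATP5MG probe set fell by 0.44 with age (adjusted p = 0.0351, limma), where the brighter one differed by -0.07. In CN at T0 the dimmer probe sets of COX8B and UQCRC2 gave 0.07 and -0.07 (SE 0.62 for the latter), where the brighter ones gave -0.84 and -0.47. In SS against LD the dimmer COX6A1 and ATP5F1D probe sets gave -1.68 and -0.16, where the brighter ones gave -0.06 and -0.64. Against SM and ST the dimmer COX6A1 probe set gave -1.17 and the brighter one -0.23. The values of COX6A1, COX8B, ATP5F1D, ATP5MG and UQCRC2 therefore also depend on the probe set read.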

How the data were processed

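The authors' deposited values are MAS5 signals, a linear intensity per probe set of the bovine Affymetrix array; MAS5 is named, without a version, in the submitters' processing notes. No probe-level data were used. Probe sets were named from the platform table (13318 with 1 symbol, 86 with several, 10724 with none), and 112 control probe sets were left out. Signals below 1 were set to 1 and log2 taken, 2 technical arrays were averaged per group, and 15664 probe sets above the overall median in at least 1 of 12 groups were tested with limma 3.58.1 (R 4.3.3; intensity trend, 8 conditions, residual df 4, prior df 6.88). The number of arrays limits the precision. Isoform ratios were compared by an exact permutation test. Genes were detailed if called, among the 3 most positive or negative of a comparison, or having an alternative isoform. The genes and lists were chosen with earlier results of these data known. The fit was tested on simulated data. Alternatives covered scaling, filter, floor, trend, probe set choice, CC, the replicate number and each array.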

Additional observations from a re-analysis of the deposited data

How the results depend on the processing

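The medians over the 38 genes kept their sign under all 9 other settings in all 8 comparisons, and COX7A2 kept its age call in all of them and in all 24 fits without 1 array. Calls were less stable, and the cause was not tested beyond the values given.

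In CN against the other genotypes at T0, 7 genes were called with CC left out and 3 with only probe sets above a mean log2 of 8 (fewer tested). With CC left out 141 of 15468 probe sets were called higher and 113 lower. Above a mean log2 of 8, 33 of 4369 were called higher and 33 lower. The main fit called 20 of 15664 higher and 7 lower. No gene of the 38 was called with the mean over probe sets of a symbol, no filter, no intensity trend, quantile normalization or signals under 32 set to 32. The median was -0.309 with array median centring and -0.243 with quantile normalization. At T12, 0 genes were called with array median centring, the mean over probe sets, no filter, no trend or the floor of 32, and the median was -0.064 with median centring, which moved the median of all tested probe sets from -0.056 to 0.085. With age, median centring gave a median of -0.235 and moved that of all probe sets from 0.060 to -0.077, turning the split of calls from 923 higher and 907 lower to 615 and 1518, and of the 38 genes from 1 and 9 to 0 and 14. Quantile normalization gave -0.044, and only 1 gene, COX7A2, was called without the trend. Quantile normalization also gave 0.127 for the interaction, -0.135 for SS against SM and ST, and -0.164 for SS against LD. In SS against LD, 6 genes were called above a mean log2 of 8, 1 with no filter and 0 without the trend. Above a mean log2 of 8, 215 of 4369 probe sets were called higher and 214 lower, against 223 and 240 of 15664 in the main fit. With the mean over probe sets of a symbol, UQCR10 and COX6A1 were called lower and ATP5F1D was not called.

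The replicate numbers did not pair the arrays: same-numbered deviations correlated at -0.0697 to 0.101 (median 0.0161, 66 pairs). The replicate block counts technical arrays as samples within a random group effect (consensus correlation 0.0373). At so low a correlation they count almost as separate samples, so its p-values are too small. It called 18 genes in CN at T0, 2 for the interaction, 4 in SS against SM and ST and 8 in SS against LD. Over all 15664 probe sets it called 245 higher and 315 lower in CN at T0, and 61 and 85 for the interaction. In SS it called 237 and 274 against SM and ST, and 546 and 589 against LD. COX6A2 and COX8B were called higher with age (limma adjusted p = 0.00590 and 0.0382). The isoform ratio differences stayed at 1.776 (COX7A1 to COX7A2), 1.247 (COX6A2 to COX6A1), 1.46 (COX8B to COX8A), 0.513 (COX7A1 to COX7A2L), -0.298 and -0.339 (ATP5MC1 to ATP5MC2 and ATP5MC3), with exact permutation adjusted p of 0.000816 to 0.0159 in the replicate block. That permutation has no group effect and regroups the arrays of each replicate number apart, so it counts technical arrays as samples and its p-values are too small.

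Small differences changed sign. With CC left out, COX7A2 in CN at T12 became 0.156, COX4I1 and COX7A1 with age 0.019 and 0.039, and COX6A2 and ATP5MC2 in SS against LD -0.041 and -0.011. With median centring COX7A1, COX7A2 and ATP5MC3 in CN at T12 became 0.012, 0.116 and 0.028, and ATP5MC2 in SS against SM and ST -0.018. With quantile normalization COX4I1 and COX7A1 with age became 0.047 and 0.051. With the mean over probe sets COX6A1 became 0.00 in CN at T12 and 0.21 with age.

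Over the 24 fits without 1 array, the number of called genes varied with age, in CN at both ages and in SS against SM and ST and against LD. The number of calls over all tested probe sets varied there as well. Medians ranged from -0.514 to -0.338 in CN at T0, 0.144 to 0.294 for the interaction, -0.126 to -0.006 in SS of CN against NN, -0.293 to -0.130 for SS against SM and ST, and -0.124 to 0.025 for SM and ST against LD. The isoform ratios ranged from 1.726 to 1.825 (COX7A1 to COX7A2), 1.216 to 1.277 (COX6A2 to COX6A1), 1.322 to 1.597 (COX8B to COX8A), 0.436 to 0.591 (COX7A1 to COX7A2L), -0.337 to -0.259 and -0.370 to -0.308 (ATP5MC1). Ranges that crossed 0 were, with age, COX7A1 at -0.054 to 0.031; in CN at T12, COX7A2 at -0.066 to 0.021 and COX8A at -0.423 to 0.139; COX7A2L at -0.359 to 0.171 in CN at T0 and -0.439 to 0.091 for the interaction; COX6B2 at -0.267 to 1.215 in SS of CN against NN and -1.322 to 0.160 for SS against SM and ST; ATP5MC2 there at -0.033 to 0.087; and COX6A2 and COX6C in SS against LD at -0.020 to 0.090 and -0.001 to 0.102.

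Signal limits UQCRQ and COX6B2 most, the dimmest of the 38 genes.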
